A study of Mus musculus with 2 samples.

Results

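The spalt-like genes Sall1, Sall2, Sall3 and Sall4 were examined in maps of open chromatin from mouse limb at embryonic day 14.5. They are 4 of 21938 protein-coding genes of GENCODE M21 on the mm10 build. They were chosen by name and not by a measured value, but with earlier results of these data known. For each gene the open regions taken were the peaks within 500 bp of any of its annotated transcription start sites (TSS peaks). To these were added the distal peaks, centred over 1 kb from every protein-coding start, whose nearest such start within 100 kb belonged to that gene. For Sall1 and Sall3 the search was carried on to 500 kb wherever no other protein-coding start was nearer.

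DNase-seq, which reads where DNase I can cut DNA that is not wrapped in nucleosomes, was carried out on whole limbs of healthy embryos of strain B6NCrl, male and female pooled. There was 1 group of 2 biological replicates and no second tissue, stage or genotype. The labels give both replicates the same donor identifier, which leaves unsettled whether separate embryos went into each, and they list instrument models for replicate 2 alone. For each library the authors deposited peaks, nearly all 150 bp wide, each with a signal in their own unit, and hotspots, the mostly broader regions that hold the peaks, each with a −log10 q-value that stops at a ceiling of 100. That ceiling was common, reached by 33.0% of hotspots in replicate 1 and 28.8% in replicate 2. Replicate 1 had 208674 peaks on the assembled chromosomes with a median signal of 42.0, and replicate 2 had 196593 with a median of 31.0. A signal is therefore also given as its percentile within its own list, and a peak is called shared when 50% or more of its length overlapped a peak from the other library. Read depth is unknown, and where no peak is given the authors listed none. In whole limbs a region open in few cells and one weakly open in many cannot be told apart.

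Sall proteins are nuclear C2H2 zinc finger factors, related to spalt of the fruit fly, that largely act as transcriptional repressors and recruit the NuRD deacetylase complex. Sall1 is known for its role in kidney formation, and mutations of human SALL1 cause Townes-Brocks syndrome, which affects the thumbs, ears and anus. Sall4 acts in pluripotent cells and germ cells and, together with Tbx5, in the early forelimb. Mutations of human SALL4 cause Duane-radial ray syndrome, and thalidomide directs human SALL4 to degradation through cereblon. Sall3 is the member closest to Sall1 and acts beside it in the developing limb, and Sall2 is the most divergent of the vertebrate genes.

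The sequence at the 5′ end of Sall1 is shown because its strongest peaks did not lie on its outermost start. Sall1 (ENSMUSG00000031665.7, chromosome 8, 89027235 to 89044162, minus strand) has 1 start in GENCODE M21, at 89044162, while RefSeq adds starts at 89043512 and 89042862 inside the first intron of that transcript. Each line below is the 250 bases before a start, from RefSeq on GRCm38.p6, the mm10 assembly, read 5′ to 3′ on the minus strand. They span chr8:89044163-89044412 for the outermost start, chr8:89043513-89043762 for the middle one and chr8:89042863-89043112 for the innermost one. Capitals mark the 150 bases that lie in the strongest peak of replicate 1.
Sall1 outermost promoter: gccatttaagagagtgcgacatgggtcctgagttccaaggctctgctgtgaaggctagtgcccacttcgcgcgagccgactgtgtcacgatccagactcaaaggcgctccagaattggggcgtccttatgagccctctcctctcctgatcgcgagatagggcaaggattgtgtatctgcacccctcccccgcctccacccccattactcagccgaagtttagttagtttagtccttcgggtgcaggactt
Sall1 middle promoter: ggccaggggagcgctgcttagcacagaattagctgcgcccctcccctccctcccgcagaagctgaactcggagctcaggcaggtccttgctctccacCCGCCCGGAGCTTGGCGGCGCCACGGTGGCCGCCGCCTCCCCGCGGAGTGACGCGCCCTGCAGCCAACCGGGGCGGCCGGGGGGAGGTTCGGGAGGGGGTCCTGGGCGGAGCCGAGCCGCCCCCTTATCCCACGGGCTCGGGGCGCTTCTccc
Sall1 innermost promoter: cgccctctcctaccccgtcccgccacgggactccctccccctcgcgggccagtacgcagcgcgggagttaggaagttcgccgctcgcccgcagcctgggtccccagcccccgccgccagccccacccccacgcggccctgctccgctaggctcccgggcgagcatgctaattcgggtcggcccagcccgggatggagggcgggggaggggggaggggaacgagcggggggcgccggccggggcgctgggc
The outermost promoter has a GC content of 56.4%, against 74.4% in the middle one and 78.4% in the innermost one. The middle promoter holds the whole peak. Its letters include the GC box word GGGCGG, which the innermost promoter also holds and the outermost does not.

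Sequence before both Sall2 starts is shown because the stretches differ widely in base composition. Sall2 (ENSMUSG00000049532.11, chromosome 14, 52311172 to 52328762, minus strand) has 2 starts in GENCODE M21, an outer one at 52328762 and an internal one at 52316323, and RefSeq places its outer start at 52328670. For the outer start the 158 bases of the RefSeq promoter that lie beyond the GENCODE start are printed, chr14:52328763-52328920, and the bases between the GENCODE and RefSeq starts are left out. For the internal start all 250 bases are printed, chr14:52316324-52316573. Both are on the minus strand of GRCm38.p6. Capitals mark the 22 bases that lie in the peak over the internal start.
Sall2 outer promoter, outer part: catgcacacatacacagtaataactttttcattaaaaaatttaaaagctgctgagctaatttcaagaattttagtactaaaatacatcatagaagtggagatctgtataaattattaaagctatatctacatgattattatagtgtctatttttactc
Sall2 internal promoter: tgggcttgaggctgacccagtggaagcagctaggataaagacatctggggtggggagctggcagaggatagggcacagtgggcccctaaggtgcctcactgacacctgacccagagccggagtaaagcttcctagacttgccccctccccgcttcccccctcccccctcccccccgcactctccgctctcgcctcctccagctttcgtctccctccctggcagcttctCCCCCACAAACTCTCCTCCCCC
The 158 printed bases of the outer promoter have a GC content of 25.3% and no CpG, and the 250 bases of the internal one have a GC content of 64.4%.

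A few distal peaks are shown to give the letters behind the word counts further on. They are the shared distal peak of Sall2 with the highest mean percentile, chr14:52338776-52338925, the shared Sall1 peak beyond 100 kb with the highest mean percentile over the replicates, chr8:88928976-88929125, the shared intergenic distal peak of Sall1 with the highest mean percentile, chr8:89046396-89046545, and the Sall4 peak at chr2:168780356-168780505. All are on the plus strand of GRCm38.p6, and capitals mark the searched words, defined with the word counts, on either strand.
Sall2 distal peak: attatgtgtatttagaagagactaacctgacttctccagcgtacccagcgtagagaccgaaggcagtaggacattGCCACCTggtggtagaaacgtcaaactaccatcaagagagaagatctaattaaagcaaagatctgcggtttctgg
Sall1 long-range peak: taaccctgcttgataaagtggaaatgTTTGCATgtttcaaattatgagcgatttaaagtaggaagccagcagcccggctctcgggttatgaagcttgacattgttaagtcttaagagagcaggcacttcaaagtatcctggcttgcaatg
Sall1 upstream peak: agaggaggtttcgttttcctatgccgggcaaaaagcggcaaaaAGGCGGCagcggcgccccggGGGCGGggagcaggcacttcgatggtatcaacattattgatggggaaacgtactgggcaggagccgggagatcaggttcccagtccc
Sall4 distal peak: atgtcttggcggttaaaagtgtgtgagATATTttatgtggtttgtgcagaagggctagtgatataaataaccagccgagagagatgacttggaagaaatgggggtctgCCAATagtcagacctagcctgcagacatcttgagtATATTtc

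Sall1, Sall2 and Sall4 each had a TSS peak shared by the replicates and Sall3 had none. The Sall4 count fell to 0 with the 50000 strongest peaks of each list, with hotspots in place of peaks and with the outermost start alone, and the Sall1 count to 0 with a window of 250 bp and by peak centre. Across all protein-coding genes, 65.1% had a shared TSS peak, 69.4% had one in replicate 1 and 68.2% in replicate 2. At Sall1, replicate 1 had 2 TSS peaks and replicate 2 had 3, of which 1 was shared. Sall2 had 4 in each, all shared. At Sall4, replicate 1 had 7 and replicate 2 had 2, of which 2 were shared. The members differed in where their openness lay and how strong it was, as the plot of peaks at the 4 gene starts shows.

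**Figure D1:**
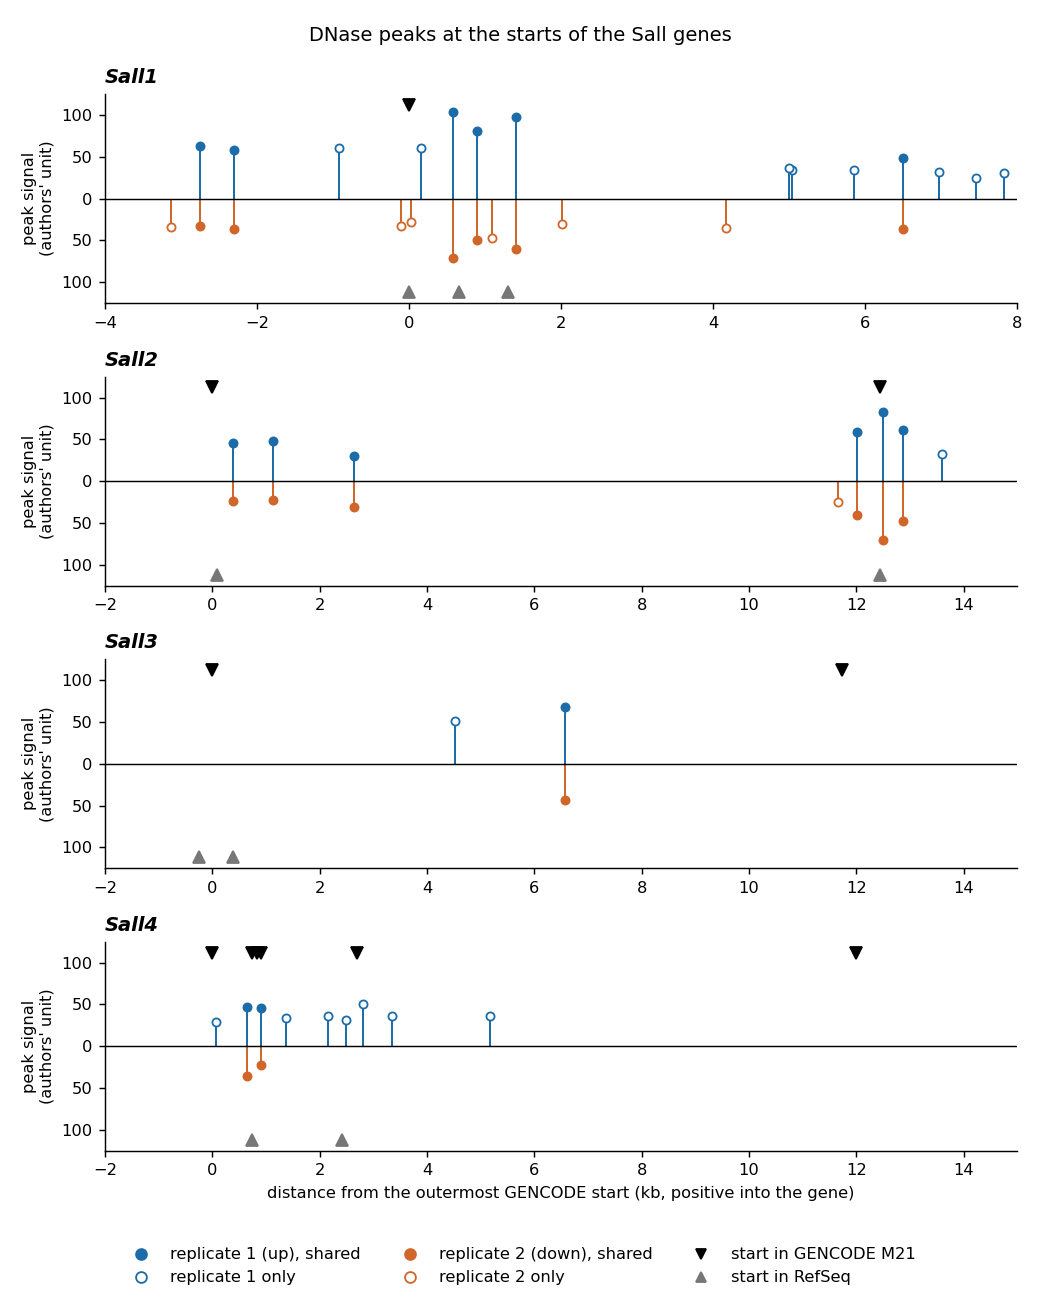
Signal of each peak (y axis, authors' unit, replicate 1 upward and replicate 2 downward) against its distance from the outermost GENCODE start of each Sall gene (x axis, kb, positive into the gene), with filled points for shared peaks, open points for peaks of 1 replicate, and triangles for annotated starts. Sall1 peaks reach 103 and 71 inside its first intron, Sall2 peaks stand over its internal start, Sall3 has none at any start, and most Sall4 peaks are in replicate 1 alone.

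At Sall1 the open chromatin centred within the first intron. The strongest peak (89043516 to 89043665) had a signal of 103 for replicate 1 and 71 for replicate 2, at percentiles 93.8 and 91.6 of the lists. It covers the bases just before the middle RefSeq start and its nearest base is 497 bp from the GENCODE start, so it falls barely inside the 500 bp window. The next peak inward (89043196 to 89043345), 817 bp from the GENCODE start and thus outside the window, had 81 and 49. Another (89042676 to 89042825), counted as distal because its centre is 1412 bp inside the gene, had 97 and 60. These 3 shared peaks lie in a single hotspot in each replicate, 1264 bp wide in replicate 1 and 1419 bp in replicate 2, both at the ceiling of 100. Of all hotspots, 96.9% were narrower in replicate 1 and 99.2% in replicate 2, while 33.0% and 28.8% were at the ceiling.

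At the outermost Sall1 start itself the signal was lower and the peaks were placed differently in the replicates. Replicate 1 had 1 peak there (89043936 to 89044085) with a signal of 60, and replicate 2 had 2, with 28 (89044056 to 89044205) and 33 (89044196 to 89044345). The first of these overlaps the replicate 1 peak by 30 bp, below the limit for a shared peak. The hotspots over them had −log10 q-values of 1.62 in replicate 1 and of 1.60 and 2.81 in replicate 2. Averaged over the replicates, the best TSS peak of Sall1 stood at percentile 92.7, against a median of 96.0 over the genes with a shared TSS peak, of which 32.9% had a lower best peak.

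Sall2 was open mainly at its internal start. The peak over that start (52316196 to 52316345) had a signal of 83 for replicate 1 and 70 for replicate 2, at percentiles 87.3 and 91.2. It was flanked by shared peaks with 61 and 48 (52315816 to 52315965) and with 59 and 41 (52316676 to 52316825). All 3 lie in 1 hotspot per replicate, 1645 bp wide in replicate 1 and 1362 bp wide in replicate 2, both at the ceiling. The peak near the outer start (52328296 to 52328445), in an exon, had 46 and 24, and its hotspots had −log10 q-values of 5.40 and 1.42. The internal start was thus the more open in both replicates. Of all genes, 96.1% had fewer shared TSS peaks than the 4 of Sall2, a count that its 2 starts share.

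Sall4 was the weakest of the 3 open members. One shared peak (168767216 to 168767365) had a signal of 47 for replicate 1 and 35 for replicate 2, at percentile 59.2 in both. The other (168766956 to 168767105) had 46 and 22, at percentiles 57.6 and 22.2. Its best mean percentile, 59.2, exceeded that of 6.31% of the genes with a shared TSS peak. Sall4 (ENSMUSG00000027547.17, chromosome 2, 168748332 to 168767943, minus strand) has 6 start sites over 7 transcripts, so more sequence was searched at it than at the other members.

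The replicates differed most at Sall4. Replicate 1 alone had 5 further TSS peaks, with signals of 29, 31, 34, 36 and 50. The highest (168765056 to 168765205), at the start of a shorter transcript at 168765246, lies in a hotspot of 526 bp at the ceiling in replicate 1, where replicate 2 had neither peak nor hotspot. A difference of 5 or more TSS peaks in favour of replicate 1 was seen in 32 genes (0.146%), Sall4 among them, and in favour of replicate 2 in 4 genes (0.0182%). The antisense transcript Gm14261 starts at 168766143 on the plus strand and overlaps the Sall4 5′ end. Within 500 bp of the Gm14261 start lay 2 peaks of replicate 1 and 0 of replicate 2, so the shared Sall4 peaks are not among them. DNase-seq does not read strand, so peaks where the genes overlap cannot be divided between them by strand.

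Sall3 (ENSMUSG00000024565.9, chromosome 18, 80966376 to 80986771, minus strand) had no peak within 500 bp of either GENCODE start, 80986771 or 80975031, and none within 500 bp of the further RefSeq starts at 80987021 and 80986388. No start lay in a hotspot in either replicate. Of all protein-coding genes, 29.2% likewise had no TSS peak in either replicate. The Sall3 start is rich in CpG, with an observed to expected ratio of 1.01, the highest within 500 bp of any of its starts, that exceeds the ratio of 97.6% of genes, where the median is 0.627 over all genes and 0.211 over genes with no shared TSS peak. Among the 523 genes with a ratio at least as high, 20 (3.82%) had no shared TSS peak and 4 (0.765%) had none in either replicate. These 4, named here after their values were seen, are Sall3, Jph3, Nudt10 and Gm47283. The nearest peak to the outer start, inside an intron (80982176 to 80982325), reached a signal of 51 in replicate 1, with no call in replicate 2.

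Distal peaks were most numerous at Sall1. Shared distal peaks numbered 10 at Sall1, 6 at Sall3, 3 at Sall2 and 3 at Sall4, against a median of 1.00 and a mean of 3.46 per protein-coding gene, and 64.9% of genes had at least 1. Before sharing was asked for, Sall1 had 25 distal peaks in replicate 1 and 19 in replicate 2, Sall2 had 4 and 3, Sall3 had 10 and 7, and Sall4 had 8 and 5. Sall1 had more shared distal peaks than 89.9% of genes and Sall3 more than 79.6%. The sequence nearest to each gene within 100 kb (its territory) differs widely, 198 kb for Sall1, 128 kb for Sall3, 84.4 kb for Sall4 and 24.7 kb for Sall2, where the median gene has 40.7 kb. Per 100 kb of territory the order changed, with 12.2 shared distal peaks at Sall2, 5.05 at Sall1, 4.68 at Sall3 and 3.55 at Sall4, against a median of 3.34 per gene.

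**Figure D2:**
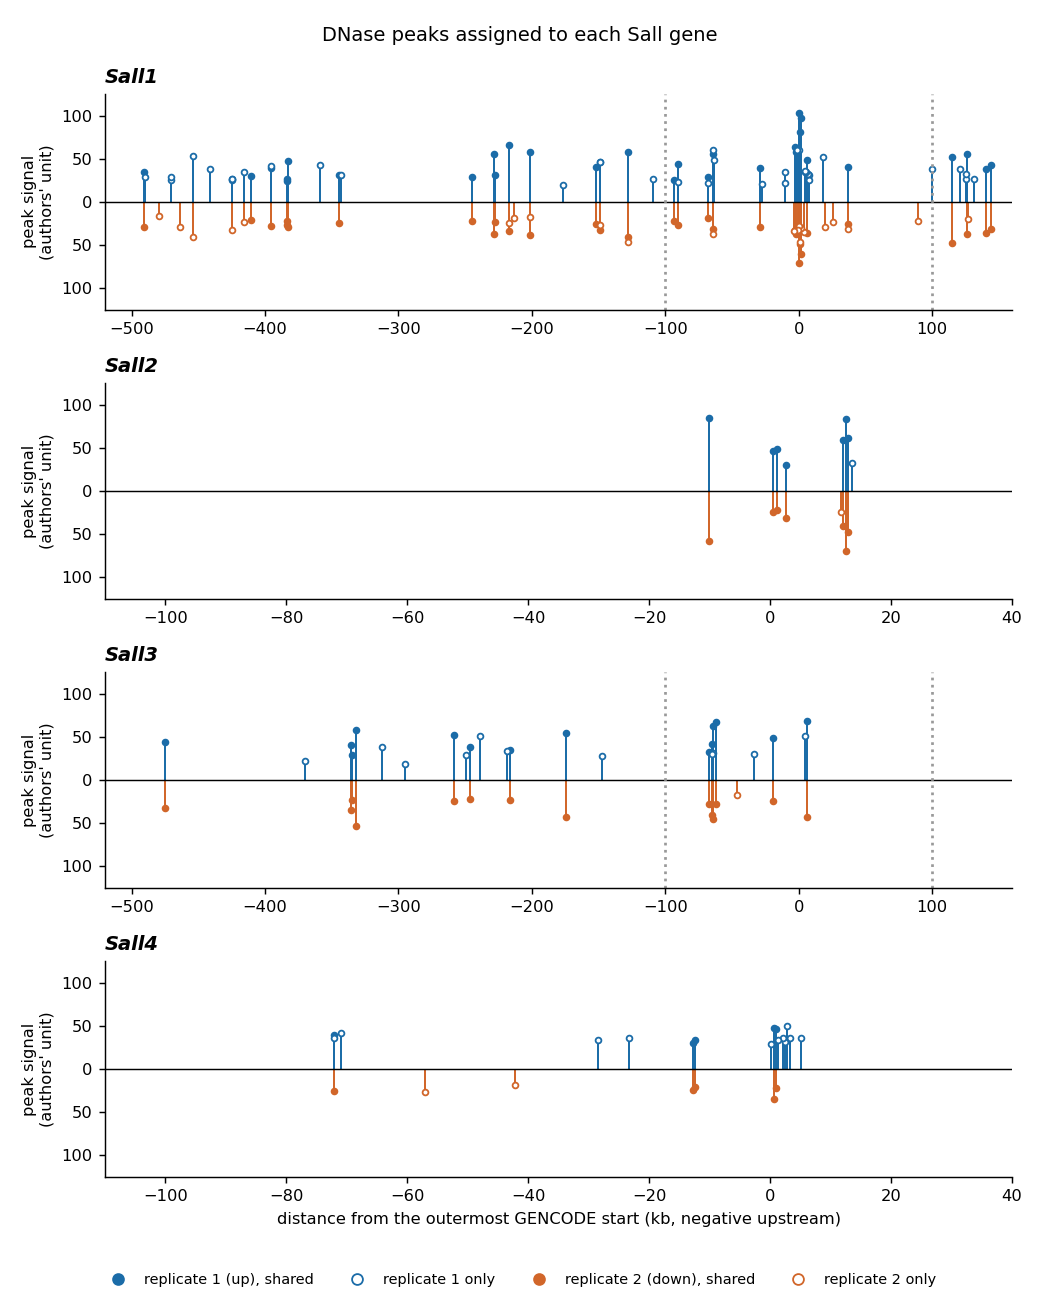
Signal of every peak assigned to each Sall gene (y axis, authors' unit, replicate 1 upward and replicate 2 downward) against distance from its outermost GENCODE start (x axis, kb, negative upstream, wider for Sall1 and Sall3, whose dotted lines stand at 100 kb). Peaks of Sall1 run on both sides of the gene out to 491 kb upstream. Peaks of Sall3 beyond 100 kb could only be upstream, since Atp9b is nearer on the other side.

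Around Sall1 the shared distal peaks had signals of 25 to 97 in replicate 1 and 19 to 60 in replicate 2. After the intronic peak with 97 and 60, the strongest shared ones by mean percentile were 2 intergenic peaks a short way upstream. That 2.31 kb upstream (89046396 to 89046545) had 58 in replicate 1 and 37 in replicate 2. That 2.75 kb upstream (89046836 to 89046985) had 63 and 33. A second cluster lay about 64 kb upstream, in a hotspot of 1409 bp at the ceiling in replicate 1 and of 711 bp with a −log10 q-value of 4.60 in replicate 2. Its shared peak (89108236 to 89108385) had 55 and 32. Of the 10 shared distal peaks, 7 were upstream of the gene start and 3 downstream, and 8 were intergenic and 2 intronic.

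Beyond 100 kb Sall1 had a further 38 peaks in replicate 1 and 30 in replicate 2, of which 19 were shared, all intergenic. The neighbouring protein-coding starts, those of Tox3 on the 5′ side and Cyld on the 3′ side, are 1304 kb and 309 kb away. Upstream lay 15 of the shared peaks and downstream 4, but the sides were not searched over equal lengths. Downstream, positions nearer to the Cyld start were left out, while upstream the search ran to the full 500 kb. The strongest shared peak by mean percentile was 115 kb downstream (88928976 to 88929125), with a signal of 52 for replicate 1 and 48 for replicate 2. Its hotspot had a −log10 q-value of 5.40 in replicate 1 and was at the ceiling in replicate 2. Upstream the strongest shared peak by mean percentile was 128 kb away (89171636 to 89171785), with 58 and 41 and hotspots at the ceiling in both replicates. The peak at the far edge of the 100 kb limit, 99.9 kb downstream, had 38 in replicate 1 and none in replicate 2.

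Sall3, with no peak at its starts, had 6 shared distal peaks, of middle rank. The strongest by mean percentile lay in its intron (80980116 to 80980265), 5.16 kb upstream of the internal start, with a signal of 68 for replicate 1 and 43 for replicate 2. Next came a cluster of 4 shared peaks 61.9 to 67.5 kb upstream of the outer start. In it the peak at 64.5 kb (81051196 to 81051345) had 63 and 45, in a hotspot at the ceiling in both replicates, and the peak at 61.9 kb (81048576 to 81048725) had 67 and 28. The peak at 61.9 kb stood at percentile 78.8 in replicate 1 and at 41.7 in replicate 2.

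Between 100 and 500 kb Sall3 had 15 further peaks in replicate 1 and 8 in replicate 2, and all 8 were shared and upstream. The strongest was 332 kb away (81318296 to 81318445), inside an intron of the noncoding gene AC165072.1, with 58 in replicate 1 and 53 in replicate 2 and hotspots at the ceiling in both. The Galr1 start, the next protein-coding start on that side, is 1420 kb from Sall3, and Atp9b lies 41.0 kb away on the other side. Because Atp9b is so near, no position beyond 100 kb on its side is nearest to Sall3, so only upstream peaks could be counted. Galr1 had no TSS peak in either replicate and Atp9b had 2 shared ones.

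Sall2 has near neighbours, with the start of the RNA methyltransferase gene Mettl3 11.2 kb to its 3′ side and that of the olfactory receptor gene Olfr1513 21.3 kb to its 5′ side. Its strongest distal peak (52338776 to 52338925) lay between Sall2 and the olfactory receptor, 10.1 kb upstream of the outer Sall2 start. It had a signal of 85 for replicate 1 and 58 for replicate 2, the highest of any intergenic shared peak of the 4 genes in each replicate, and its hotspots were at the ceiling. Olfr1513 itself had no TSS peak. The other shared distal peaks of Sall2 were intronic, with 48 and 22 (52327556 to 52327705) and with 30 and 31 (52326056 to 52326205).

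The 3 shared distal peaks of Sall4 were intergenic, upstream and weak. The peak 72.1 kb away (168839936 to 168840085) had a signal of 40 for replicate 1 and 26 for replicate 2. It lies about midway between Sall4 and Zfp64, whose start is 145 kb to the 5′ side, so its assignment to Sall4 is by a narrow margin. On the 3′ side the Atp9a start is 13.5 kb away from that of Sall4. The pair at 12.5 kb (168780356 to 168780505) and 12.8 kb (168780696 to 168780845) had 34 and 21, and 30 and 24. All 6 values lie below percentile 50 of their lists, and the hotspots under them had −log10 q-values of 1.46 to 2.56.

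The share of member peaks found in both replicates differed between the lists. Of the 60 TSS and distal peaks of the 4 genes in replicate 1, 29 (48.3%) were shared, against 61.2% of all peaks of replicate 1. Of the 43 in replicate 2, 29 (67.4%) were shared, against 65.0% of all peaks. Sall2 was shared most, with all 4 TSS peaks of each list and 3 of 4 distal peaks of replicate 1. Sall4 was shared least in replicate 1, with 2 of 7 TSS peaks (28.6%) and 3 of 8 distal peaks (37.5%). These shares are a description, since peaks of a library are not replicates of the limb.

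Between the replicates the percentiles of shared peaks differed by about the general median at Sall1, by less at Sall2 and by more at Sall3 and Sall4. Percentiles in replicate 1 and replicate 2 differed by a median of 7.20 over 31 shared peaks of Sall1, 3.90 over 7 of Sall2, 11.2 over 14 of Sall3 and 11.5 over 5 of Sall4, against 7.27 over all 127632 shared peaks. The plot of percentiles in both lists places the shared start peak of Sall1 and the peak over the internal start of Sall2 high in both, and the outer start peak of Sall2 and a start peak of Sall4 low in replicate 2.

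**Figure D3:**
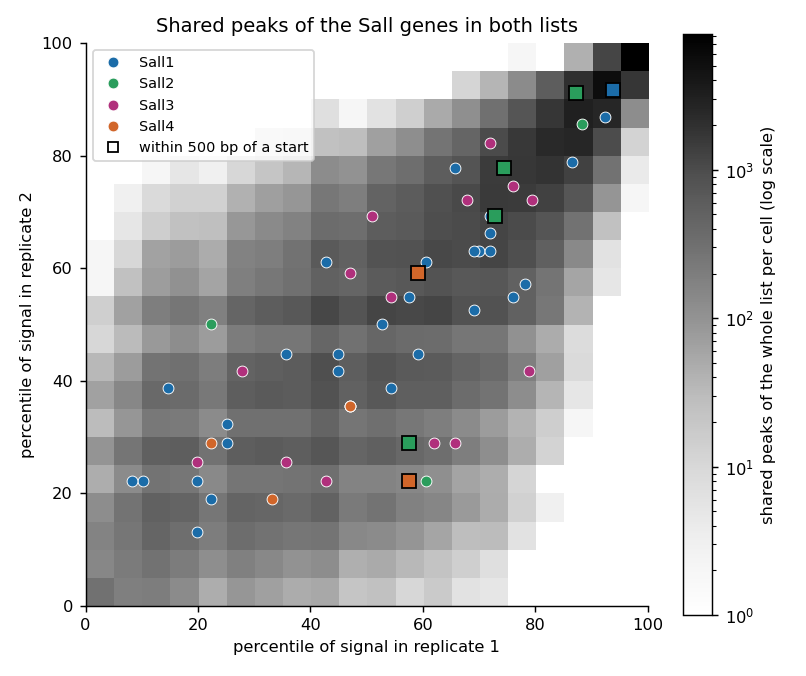
Percentile of signal in replicate 1 (x axis) against replicate 2 (y axis) for every shared peak of the Sall genes, coloured by gene, over the number of all shared peaks per cell (grey, log scale). Squares are peaks within 500 bp of a start, and Sall1 at 93.8 and 91.6 is the highest in both replicates, while Sall4 at 57.6 and 22.2 is the lowest of the squares in replicate 2.

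The rank and base composition of member peaks were set beside those of all shared peaks of the same class, without a test. The 7 shared TSS peaks had a median mean percentile of 71.1, against 89.3 over all shared TSS peaks, a median GC content of 62.0% against 63.3%, and a CpG observed to expected ratio of 0.551 against 0.748. The 22 shared distal peaks had a median mean percentile of 46.0 against 61.4, with a GC content of 50.6% against 49.3% and a CpG ratio of 0.375 against 0.248. By gene, the distal medians were 53.6 for Sall1, 41.4 for Sall2, 60.2 for Sall3 and 26.0 for Sall4.

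Short words bound by factor families were counted on both strands of the shared peaks. The 14 words were ATATT, an A/T-rich word bound by SALL4, AGGTGTG for T-box factors, TTTATNG for posterior HOX factors, GACCACC for GLI, ATCAAAG for TCF/LEF, CAGCTG as an E-box, TGANTCA for AP-1, GGGCGG as the GC box, GGAATG for TEAD, CCGGAAG for ETS factors, AGGNGGC as the core of the CTCF site, CCAAT for NF-Y, ACAAAG for SOX factors and ATGCAAA as the octamer, and none of the words contains another. ATATT was in 1 of 22 distal member peaks (4.55%), against 14.8% of all 75901 shared distal peaks. That 1 peak is the Sall4 one printed above, which holds the word at 2 places. The word was also in 10 of the 27 shared peaks of Sall1 and Sall3 beyond 100 kb (37%). The 75901 peaks all lie within 100 kb of a start, so those 27 have no matched background. Median GC content was 47.3% over the 27 and 49.3% over the 75901. The CTCF core was in 4 of 7 TSS member peaks (57.1%), against 26.7% of all shared TSS peaks, and in the strongest distal peak of Sall2. The GC box was in 1 of 7 (14.3%), against 45.2%. In distal member peaks CCAAT was in 7 of 22 (31.8%) against 19%, and the E-box in 2 of 22 (9.09%) against 20.1%. With so few peaks a single match moves a share widely, and a match is not evidence of binding.

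The words were also counted over all 250 bases before each start in 5 member promoters, 3 of Sall1 and 2 of Sall2. The part of the outer Sall2 promoter that is not printed was included. The promoter set used held none of Sall3 or Sall4, although RefSeq gives starts for both, so these counts do not cover them. The GC box was in 2, both of Sall1, where 32.7% of 32851 promoters hold it. ATATT was in 1, where 23.3% do, and its match lies in the unprinted part of the outer Sall2 promoter. The CTCF core was in 2, against 25.0% of promoters. CCAAT was in 2, the outermost of Sall1 and the unprinted part of the outer one of Sall2, against 33.8%.

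Genes that work with the Sall proteins were read the same way, beside the 65.1% of all protein-coding genes with a shared TSS peak. All 13 NuRD subunits listed had a shared TSS peak, with 4 shared distal peaks in the median, among them Chd4, the remodelling ATPase, with a best mean percentile of 96.8, and the histone deacetylase Hdac1 with 98.7. Of 13 genes known beside Sall genes in limbs, 10 (76.9%) had one, with a median of 10 shared distal peaks, where Sall genes had 4.5. These medians are not per territory. Territory ran from 42.5 to 241 kb among the 13 genes and from 24.7 to 198 kb among the Sall genes. Tbx5, the forelimb T-box factor, had 1 shared TSS peak at mean percentile 66.7 and 12 shared distal peaks. Gli3, a hedgehog effector, had 4, the best of them at 95.9, and 18 distal ones. Crbn, which encodes cereblon, had 1 at 91.7 and 3 distal ones. Fgf8, Grem1 and Shh, secreted factors made by restricted groups of limb bud cells, had no shared TSS peak, and Grem1 had 3 TSS peaks in replicate 1 with none in replicate 2.

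The counts of the Sall genes were set beside those of other developmental transcription factor families. Of 6 Iroquois genes, 4 were open at a start in both replicates, Irx4 and Irx6 being without, and 6.5 shared distal peaks in the median. Tbx2, Tbx3, Tbx15 and Tbx18 had one in 4 of 4 and 12.5 shared distal peaks in the median, from 0 at Tbx2 to 18 at Tbx15. The Sall genes had one in 3 of 4, with 3 to 10 shared distal peaks. These distal counts are not per territory, and no test was made between the families.

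**Figure D4:**
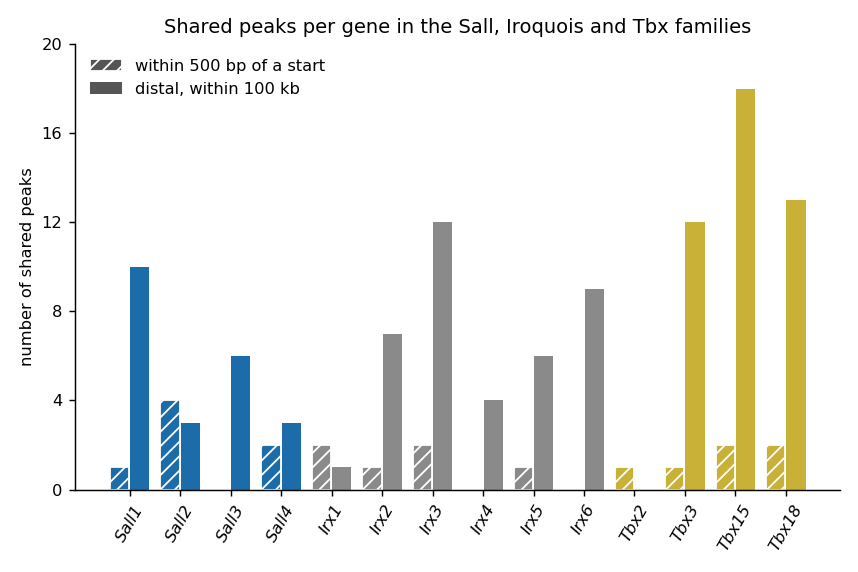
Number of shared peaks (y axis) within 500 bp of a start (hatched) and at distal sites within 100 kb (plain) for each gene of the Sall family and of the Iroquois and Tbx groups (x axis). Counts are not per territory. Sall1 with 10 distal peaks stands among the Iroquois genes and below Tbx3, Tbx15 and Tbx18, and Sall3 has shared distal peaks with no shared start peak, as Irx4 and Irx6 do (Irx6 has 2 start peaks in replicate 1 alone).

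The labelled tissue was checked with marker genes, beside the 65.1% of all protein-coding genes that had a shared TSS peak. A count of 2 of 3 (66.7%) is near that share. Of 10 limb mesenchyme genes, 9 had a shared TSS peak, with Lmx1b the exception, and so did all 3 of skeletal muscle and 2 of 3 each of cartilage, epidermis and endothelium, without Acan, Krt14 and Cdh5. None of 3 blood genes (Gata1, Klf1, Spi1), 3 liver genes (Alb, Apoa1, Ttr) or 4 genes of pluripotent and germ cells (Dppa4, Nanog, Pou5f1, Zfp42) had one. Kidney progenitor genes Six2, Pax2 and Wt1, which are also active outside the kidney, had one in 3 of 3. Tmem119 of 3 microglia genes had one, without Cx3cr1 and P2ry12, and so did Slc17a7 of 3 neuron genes, without Gad1 and Neurod1. The share of each cell type in the Sall peaks was not tested.

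The genes with counts most like each member were found by Euclidean distance over the logarithms of TSS and distal peak counts in the 2 replicates and of territory. Closest to Sall1 were Dym at a distance of 0.168 and D7Ertd443e at 0.220, and closest to Sall2 were Cnnm3 at 0.229 and Srebf1 at 0.264. Closest to Sall3 were Gm21060 at 0.0450 and Th at 0.0495, which had the same 10 distal peaks in replicate 1, 7 in replicate 2 and no TSS peak. Sall4 had no near match, with Lin28b at 0.612 and Parg at 0.616, each with 5 TSS peaks in replicate 1 and 2 in replicate 2.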

How the data were processed

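Peaks and hotspots were deposited by the authors for each library separately on mm10. The peak signal is the authors' own whole-number value, whose scaling is not given in the sources used here, and hotspots carry the authors' −log10 q-value with a ceiling of 100. Which aligner and peak caller were used is not given in the sources used here, and read depth is unknown. Peaks on the autosomes, X and Y were used. Genes and starts came from GENCODE M21 and further starts and promoters from RefSeq on GRCm38.p6. A peak counted as near a start by its nearest base. The coordinates of a shared peak are those of replicate 1. CpG content of a gene is the highest observed to expected ratio within 500 bp of any of its starts. Percentiles, overlaps and words were computed with Python 3.11.15, pandas 2.3.3 and numpy 2.4.6, and counting was tested on simulated data. With 1 group of 2 replicates no test was made. Named items were the members, their TSS peaks, the 3 distal peaks of highest mean rank per member, the strongest one of Sall1 and Sall3 beyond 100 kb, the 2 genes most like each member, and listed genes with no shared TSS peak; others are named as examples from the lists or beside these. The members and lists were chosen with earlier results of these data known. The alternatives tried are given in the closing section.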

Additional observations from a re-analysis of the deposited data

How the results depend on the processing

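Of 96 values under alternative settings, 62 stayed within 1.5 times the reported count or within 1 SD and 34 did not. Shared TSS peaks of Sall3 (reported 0) numbered 0 under every alternative tried. Sall3 had 0 TSS peaks in each replicate, so most of these settings return 0 by construction, those that use 1 replicate alone included. Only a 1000 bp window, hotspots in place of peaks and added RefSeq starts were able to raise the count, and each gave 0. The Sall3 values fixed by construction are counted among the 62. No paired analysis was possible because there is 1 group.

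Shared TSS peaks of Sall1 (reported 1) numbered 2 with an overlap of at least 1 bp, 0 with a window of 250 bp, 2 with one of 1000 bp, and 2 to 3 with 1 replicate alone. After seeing the data, 2 further settings were added, and Sall1 then had 0 by peak centre and 3 with RefSeq starts. Those of Sall2 (4) fell to 1 with the 50000 peaks of highest signal, with hotspots, with 250 bp and with the outermost start. Those of Sall4 (2) fell to 0 with the 50000 strongest peaks, with hotspots and with the outermost start, and were 2 to 7 with 1 replicate alone. Under hotspots, the overlap of the replicates at Sall4 was too small a part of the wider hotspot to be called shared. With the 50000 strongest peaks, the shared distal peaks of Sall1 (10) and Sall2 (3) fell to 1 each and those of Sall3 (6) and Sall4 (3) to 0. So did the peaks beyond 100 kb of Sall1 (19) and Sall3 (8), and 66.7% of the member peaks of replicate 1 were then shared. With 1 replicate alone the distal peaks were 19 to 25 for Sall1, 7 to 10 for Sall3 and 5 to 8 for Sall4, and those beyond 100 kb were 30 to 38 for Sall1 and 8 to 15 for Sall3. Hotspots gave 5 beyond 100 kb for Sall3. Distal limits of 50 and 200 kb gave 6 and 17 for Sall1, and 50 kb gave 2 for Sall3. Some shifts follow from the settings. The strongest-peak setting keeps fewer peaks by construction. A limit of 50 kb cannot raise a distal count and one of 200 kb cannot lower it. With 1 replicate alone, sharing is not asked for. The outermost-start setting leaves out the internal start of Sall2, and hotspots count the 3 peaks there as 1. For the other shifts the cause was not tested. Read depth is unknown, and its part in the calling of weak peaks, such as those of Sall4, was not tested.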
